A study of Homo sapiens with 12 samples.

Results

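The mRNAs of the E2F transcription factors E2F1 to E2F8 and of the pocket proteins RBL1 (p107) and RBL2 (p130) were examined in 12 RNA-seq libraries. These 10 genes were chosen by symbol from a table of 40295 gene identifiers. They stood in 11 rows, because E2F2 had 2 identifiers, ENSG00000007968 and ENSG00000282899, with the same counts in every library, and these rows were added. All 10 genes passed the filter on low counts in both cell lines. Of the 12 libraries, 6 came from TOV-112D, an ovarian cancer line with the p53-R175H mutation, after 3 h with the vehicle DMSO (n = 2), UCI-1001 (n = 2) or UCI-1014 (n = 2). UCI-1001 was given at 10 µM, and no dose for UCI-1014 was found in the sources used here. UCI-1014 carries a methoxy group in place of the nitro group of UCI-1001. The other 6 came from Saos-2, an osteosarcoma line without p53. Of these, 3 were of the parental cells (p53-null) and 3 of cells with a lentiviral, doxycycline-inducible wild-type p53 (p53-WT), and the labels give 16 h of induction for both. The comparison of the Saos-2 lines asks which mRNAs depend on p53, and the compounds were compared with DMSO to ask whether they restore such expression in cells with mutant p53.

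E2F factors bind DNA, most of them together with a DP partner, and control genes needed to enter and pass through S phase. E2F1, E2F2 and E2F3 are known mainly as activators, E2F4, E2F5 and E2F6 as repressors, and E2F7 and E2F8 as atypical repressors that bind without a DP partner. RBL1 and RBL2 bind E2F4 and E2F5 and, with the MuvB core, form the DREAM complex, which represses cell cycle genes in quiescent cells and after p53 activation. In that pathway p53 raises CDKN1A (p21), which inhibits the cyclin-dependent kinases that keep pocket proteins phosphorylated. Inhibition of kinases, phosphorylation and complex formation act on proteins, and RNA-seq measures only the mRNAs.

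Total counts lay between 17762027 and 24629558 per library. As a check of the labels, the p53 target CDKN1A stood at 56.8 to 79.3 CPM (counts scaled to the TMM-adjusted library size) in p53-null and at 7935 to 9004 CPM in p53-WT libraries. Replicate 1 of each Saos-2 line stood apart from replicates 2 and 3, as chi-square over degrees of freedom reached 23.6 and 25.3 (p53-null) and 39.4 and 39.9 (p53-WT) for pairs with it, against 4.25 and 3.43 for replicates 2 and 3. The 9 osteoblast markers summed to 50.03 to 66.8 CPM in p53-null and 19.1 to 25.1 CPM in p53-WT cells, with SP7 at 0 in all 6 Saos-2 libraries and IBSP at 0 to 0.0876 CPM. They summed to 66.1 to 72.8 CPM in TOV-112D cells, most of it COL1A1 (47.6 to 53.2 CPM). In TOV-112D cells the epithelial marker KRT18 was at 0 in all 6 libraries, and EPCAM lay at 1.80 to 3.09 CPM. In bulk samples, fewer cells in cycle and less mRNA per cell cannot be told apart.

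The promoters of the members fell into those with and those without the letters of an E2F site. Promoter windows of RefSeq (GRCh38.p14, 250 bases before to 50 after each start) were found for 8 of the 10 members, E2F5 and E2F8 being the others. They were searched on both strands for TTTGGCGC, TTTCCCGC, TTTCGCGC or TTTGCCGC. At least 1 of these stood in 3.31% of 35116 promoters and at least 2 in 0.145%. Among the members, E2F1 and RBL1 had 2 matches each, E2F2 had 1, and E2F3 had 1 at its first start. E2F4, E2F6, E2F7, RBL2 and the second start of E2F3 had none. The 100 bases before the start are shown for E2F1, E2F2 and RBL1, 3 of the 4 members with the largest falls in p53-WT cells, and for both RefSeq starts of E2F3. Capitals mark the matches.
E2F1 (chr20:33686386-33686485, minus strand): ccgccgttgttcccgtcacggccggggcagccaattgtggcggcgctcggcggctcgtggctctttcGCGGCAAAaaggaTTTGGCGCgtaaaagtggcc
E2F2 (chr1:23531234-23531333, minus strand): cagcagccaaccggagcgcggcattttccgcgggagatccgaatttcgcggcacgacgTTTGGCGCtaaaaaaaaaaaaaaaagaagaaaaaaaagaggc
RBL1 (chr20:37095998-37096097, minus strand): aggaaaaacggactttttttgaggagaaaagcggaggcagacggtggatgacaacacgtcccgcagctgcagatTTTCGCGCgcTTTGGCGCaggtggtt
E2F3, first start (chr6:20401779-20401878, plus strand): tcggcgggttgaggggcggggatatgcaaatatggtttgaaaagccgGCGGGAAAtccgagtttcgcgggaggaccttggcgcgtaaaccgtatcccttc
E2F3, second start (chr6:20403514-20403613, plus strand): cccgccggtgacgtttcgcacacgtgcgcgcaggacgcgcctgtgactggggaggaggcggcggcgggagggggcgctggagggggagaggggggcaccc
The matches lay close to the start, counted with the first transcribed base as position 0. In E2F1 they began at -33 and -20, in RBL1 at -26 and -16, in E2F2 at -42 and in E2F3 at -53. A match is a description of letters and not a binding site. The cell cycle element (CHR, TTTGAA or TTCGAA), at which the MuvB core binds, was found at the first start of E2F3 and in 1 of the 2 windows of RBL2, and it stands in 16.4% of all promoters. CCAAT, the letters bound by NF-Y, stood 3 times in E2F1 and 4 times each in E2F3 and E2F7, and in 34.6% of all promoters at least once.

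Per length, E2F4 had the highest group mean of the 10 mRNAs in every group, but with UCI-1014 it overlapped E2F6. Levels between genes were compared in TPM (an abundance scale that corrects for transcript length). E2F4 reached 63.5 ± 3.34 TPM (SD, n = 2) in DMSO, 78.1 ± 7.92 TPM (SD, n = 3) in p53-null and 52.6 ± 2.49 TPM (SD, n = 3) in p53-WT cells. With UCI-1014, E2F4 was at 59.8 and 59.7 TPM and E2F6 at 61.0 and 51.6 TPM. By counts per mean effective length, scaled to the same sum, they were at 75.3 and 79.2 and at 33.7 and 28.9, without overlap. By that measure RBL2 came second in DMSO libraries (35.7 and 36.4), so the order below E2F4 depends on the length measure. In DMSO-treated TOV-112D cells E2F1 followed with 54.8 ± 2.36 TPM and E2F6 with 39.7 ± 0.193 TPM. E2F3 and E2F8, at 11.1 ± 0.109 and 10.5 ± 1.10 TPM, were the lowest and overlapped. The transcripts summed for E2F3 held only 80.9% and 80.2% of its count in the DMSO libraries, so its level and place may be too low. In p53-null Saos-2 cells E2F5 was second with 57.2 ± 4.21 TPM, E2F1 (34.3 ± 4.58 TPM) and E2F6 (28.7 ± 1.27 TPM) overlapped, as did E2F8, E2F7 and RBL2 in a row near 10.3, 10.3 and 9.92 TPM, and E2F2 and RBL1 were the lowest with 8.15 ± 1.47 and 7.56 ± 1.03 TPM. In p53-WT cells the order changed. E2F5 (21.6 ± 3.79 TPM), RBL2 (17.6 ± 2.42 TPM), E2F3 (17.2 ± 3.34 TPM) and E2F6 (12.1 ± 2.38 TPM) followed E2F4, each overlapping the next, and E2F1, RBL1, E2F8 and E2F2 stood at the bottom with 2.77 ± 0.0723, 1.75 ± 0.436, 1.30 ± 0.418 and 0.604 ± 0.149 TPM, of which RBL1 and E2F8 overlapped.

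The 8 E2F mRNAs together summed to 221.6, 262.2 and 250.4 TPM in the p53-null libraries and to 101.6, 122.7 and 122.9 TPM in the p53-WT libraries. The groups did not overlap, and an exact permutation test (two-sided) gave p = 0.1, the smallest that 3 against 3 libraries allow. The share of E2F4 in that sum was 31.9% ± 1.34 (SD, n = 3) in p53-null and 45.7% ± 4.51 (SD, n = 3) in p53-WT cells. The activators E2F1 to E2F3 made up 24.5% ± 1.31 and 17.7% ± 1.28. The transcripts summed for E2F3 held 84.4% to 87.2% of its count in p53-null and 95.1% to 99.2% in p53-WT libraries. In TOV-112D libraries they held 80.2% to 87.4%, so sums and shares that include E2F3 may be uneven between groups. In TOV-112D cells the sum stayed between 225.5 and 238.9 TPM in all 6 libraries, and the share of E2F1 to E2F3 was 34.0% ± 1.28 in DMSO, 32.1% ± 0.855 in UCI-1001 and 30.0% ± 2.03 in UCI-1014 libraries (SD, n = 2). With 2 against 2 libraries the smallest exact permutation p is 0.333.

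**Figure D1:**
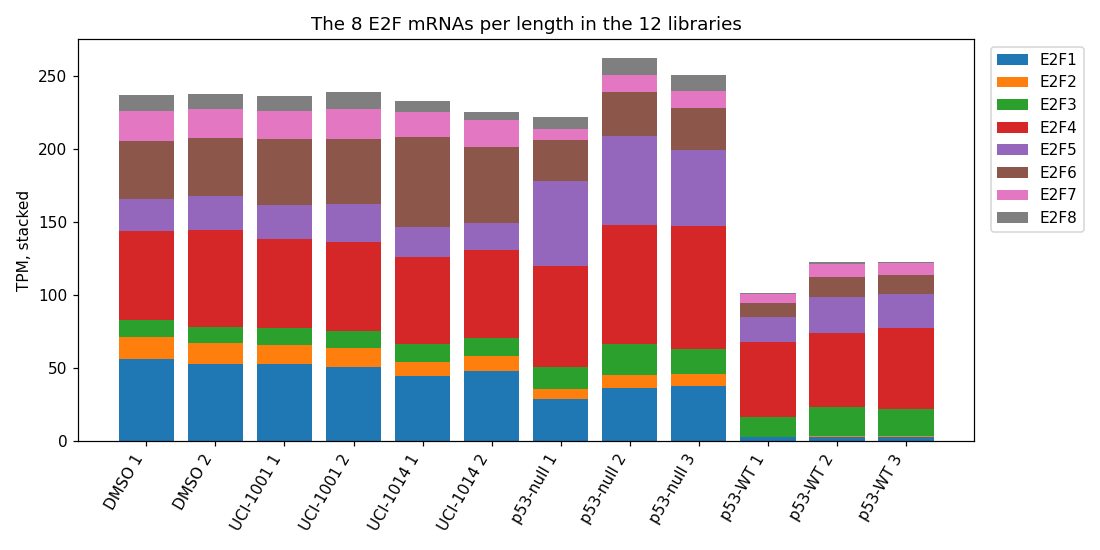
Stacked TPM of the 8 E2F mRNAs (vertical axis) in each of the 12 libraries (horizontal axis), 1 color per gene. The 3 p53-WT libraries reach 101.6 to 122.9 TPM and the other 9 reach 221.6 to 262.2 TPM, with E2F4 the largest block in every group mean.

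In Saos-2 cells with p53-WT, 7 of the 10 members were lower and 1 was higher than in p53-null cells. Genes were called at an adjusted p-value under 0.05 in edgeR's quasi-likelihood test, with Benjamini-Hochberg adjustment over all 15080 genes tested. Of all genes tested, 32.1% were called lower and 32.9% higher. The median log2 fold change was -1.16 over the members and -0.01 over all genes. Scaled by library size alone, the median of all genes moved by -0.15 and the share of higher calls among all calls from 50.6% to 41.9%. The activators fell most. E2F1 mRNA was at 53.7, 57.3 and 61.6 CPM in the p53-null libraries and at 6.09, 5.04 and 5.25 CPM in the p53-WT libraries. No library of one group came near the other, and the fall was 10.5-fold, or -3.39 on the log2 scale (SE 0.12, adjusted p = 1.93e-08, edgeR). E2F2 was at 25.9, 31.5 and 30.0 CPM in p53-null and at 2.12, 2.39 and 2.91 CPM in p53-WT libraries, an 11.7-fold fall (-3.55 on the log2 scale, SE 0.15, adjusted p = 5.07e-08, edgeR). Its reads were shared between 2 identical transcripts of 5191 bases, 1 per identifier. E2F3, the third activator, did not follow. It was at 62.2, 73.5 and 63.1 CPM in p53-null and at 56.8, 70.8 and 66.6 CPM in p53-WT libraries. The groups overlapped, and the log2 fold change was -0.03 (95% interval -0.30 to 0.23).

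The repressors differed among themselves. E2F4 was at 96.7, 100.5 and 105.4 CPM in p53-null and at 88.0, 73.4 and 77.5 CPM in p53-WT libraries. The groups did not overlap, but the change was the smallest of those called, -0.34 on the log2 scale (SE 0.11, adjusted p = 0.0165, edgeR). It was not called without replicate 2 or 3 of either line (adjusted p = 0.0601 to 0.0842). E2F5, the other partner of RBL2 among the E2F repressors, was at 67.9, 58.2 and 56.9 CPM in p53-null and at 21.4, 27.7 and 27.1 CPM in p53-WT libraries, a 2.40-fold fall (log2 fold change -1.26, SE 0.13, adjusted p = 1.73e-05, edgeR). E2F6, which represses without pocket proteins, was at 47.3, 44.7 and 43.0 CPM in p53-null and at 18.7, 23.3 and 22.6 CPM in p53-WT libraries. Every p53-WT library lay below every p53-null library, and the fall was 1.06 on the log2 scale (SE 0.12, adjusted p = 2.42e-05, edgeR).

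Of the atypical repressors E2F7 and E2F8, only E2F8 was called. E2F8 was at 20.8, 24.3 and 24.0 CPM in p53-null and at 3.18, 3.19 and 2.60 CPM in p53-WT libraries, a 7.70-fold fall (log2 fold change -2.94, SE 0.14, adjusted p = 8.66e-08, edgeR). E2F7, a gene that p53 is known to activate, was at 33.5, 41.9 and 44.7 CPM in p53-null and at 27.1, 36.6 and 35.6 CPM in p53-WT libraries. The groups overlapped and the gene was not called (log2 fold change -0.27, 95% interval -0.61 to 0.06, adjusted p = 0.134, edgeR). With replicate 1 of both lines left out, an alternative chosen after seeing the data, E2F7 was called lower (log2 fold change -0.26, adjusted p = 0.00618, edgeR). It was also called lower without p53-null replicate 1 alone (adjusted p = 0.0490, edgeR) and by library size alone (adjusted p = 0.0480, edgeR). With the replicate number as a block E2F7 was called lower too, which makes 4 of 15 alternatives.

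The pocket protein mRNAs moved in opposite directions. RBL1 was at 29.8, 32.2 and 28.0 CPM in p53-null and at 5.38, 6.83 and 7.15 CPM in p53-WT libraries, a 4.65-fold fall (log2 fold change -2.22, SE 0.14, adjusted p = 4.38e-07, edgeR). RBL2, the pocket protein known from DREAM in non-cycling cells, was at 29.7, 28.8 and 28.3 CPM in p53-null and at 57.2, 65.5 and 58.8 CPM in p53-WT libraries. It was the only member called higher and rose 2.09-fold (log2 fold change 1.06, SE 0.10, adjusted p = 9.13e-06, edgeR). Per length, the ratio of RBL2 to RBL1 was 1.37, 1.14 and 1.46 in the p53-null libraries and 12.3, 10.98 and 7.95 in the p53-WT libraries. These groups did not overlap either (exact permutation p = 0.1, two-sided, the smallest possible). In TOV-112D cells the ratio lay between 1.65 and 2.24 in all 6 libraries.

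With replicates 2 and 3 of both Saos-2 lines alone, 9 of 10 members were called, E2F7 being added. The share of all genes called in that fit is not given here, so this count has no background beside it. The epithelial marker list summed to 708.6 to 769.5 CPM in p53-null and 842.2 to 1083 CPM in p53-WT cells, most of it KRT8 and KRT18, and the osteoblast list was lower in p53-WT cells, as given above. Markers of blood and endothelial cells summed to at most 3.41 and 3.05 CPM in any of the 12 libraries, and the endothelial list was at 0.701 to 0.969 CPM in p53-null and 2.84 to 3.05 CPM in p53-WT cells. Their part in the results was not tested.

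**Figure D2:**
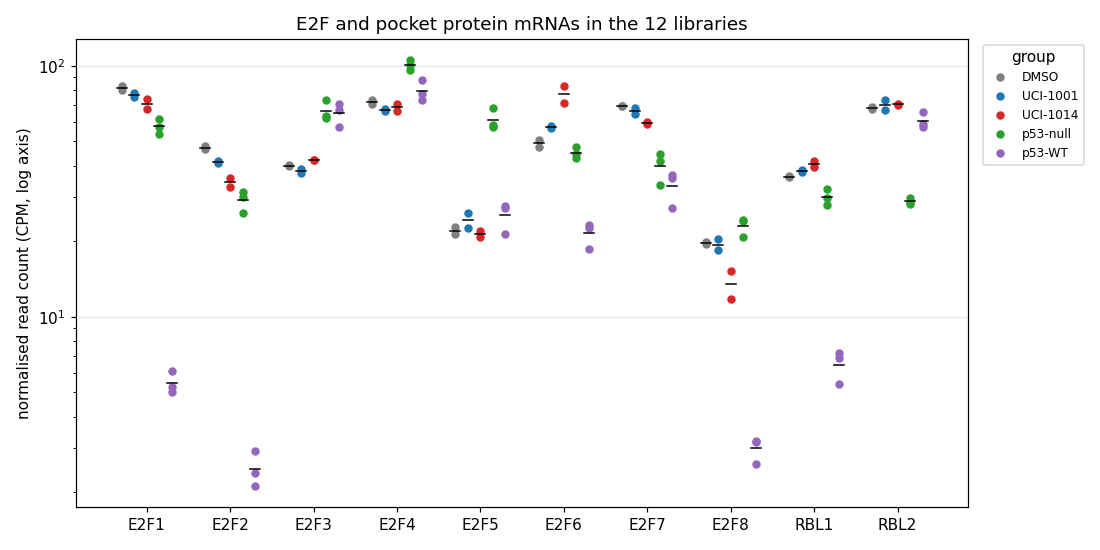
Normalised read count (CPM, log axis) of each of the 10 genes, 1 point per library colored by group, with a line at each group mean. In E2F1, E2F2, E2F8 and RBL1 the 3 p53-WT points lie far below the p53-null points, in RBL2 they lie above, and in E2F3 and E2F7 they overlap.

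In Saos-2 cells the total of E2F3 was also followed by transcript. E2F3a begins at the first start (chr6:20401879) and has 465 codons, and E2F3b begins 1800 bases downstream, inside the first intron of E2F3a, and has 334 codons. The first stretch of E2F3 given above ends at the base before the start of E2F3a. The second belongs to the second RefSeq start and ends at chr6:20403613, somewhat before the annotated start of E2F3b at chr6:20403679. E2F3a was at 6.73, 11.4 and 8.88 TPM in the p53-null libraries and at 3.73, 6.77 and 5.88 TPM in the p53-WT libraries. These values overlapped slightly (exact permutation p = 0.2, two-sided). E2F3b was at 8.75, 9.34 and 8.15 TPM in p53-null and at 9.67, 12.9 and 12.5 TPM in p53-WT libraries, with no overlap (exact permutation p = 0.1, two-sided, the smallest possible). Its share of both transcripts was 56.5%, 44.9% and 47.9% in p53-null and 72.1%, 65.6% and 68.1% in p53-WT libraries, again without overlap (p = 0.1 by the same exact test). Over 21 such tests of levels, none had an adjusted p below 0.35. In TOV-112D cells E2F3a was the more abundant, and E2F3b made up 21.1% and 30.2% in the DMSO, 23.1% and 29.5% in the UCI-1001 and 25.5% and 41.5% in the UCI-1014 libraries. The transcripts share most of their exons, and both together held 80.2% to 87.4% of the count of E2F3 in 9 libraries and 95.1% to 99.2% in the 3 p53-WT libraries. The part of this difference in the result was not tested.

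**Figure D3:**
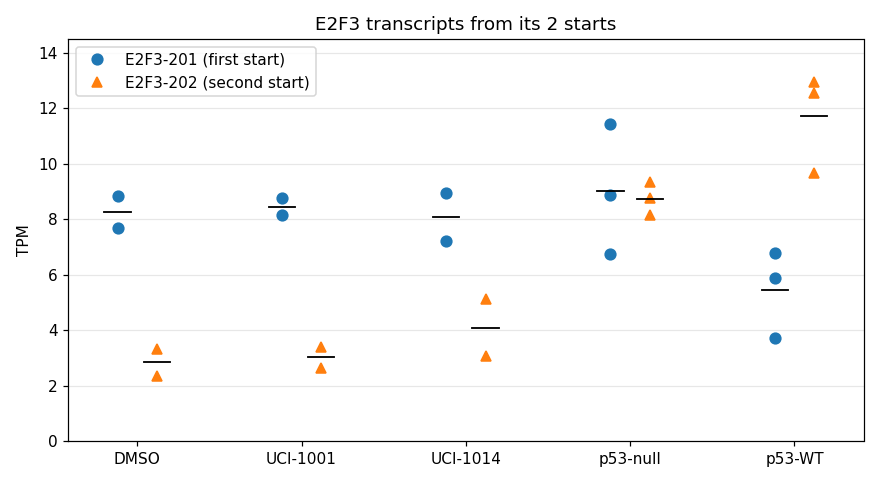
TPM of the E2F3 transcripts (vertical axis) from the first start (blue circles) and the second start (orange triangles) in each library by group, with a line at each group mean. In p53-null cells the transcripts lie together, in p53-WT cells E2F3b at 9.67 to 12.9 TPM lies above E2F3a at 3.73 to 6.77 TPM, and in TOV-112D cells E2F3a lies above.

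Genes that E2F factors are known to control fell with p53-WT. Of a list of 37 G1/S targets, 35 were lower and 2 higher, with a median log2 fold change of -2.58. Of all genes tested, 32.1% were lower and 32.9% higher. The largest falls were those of FAM111B, a protease (log2 fold change -4.85), CCNE2, a cyclin that activates CDK2 (-4.51), MCM10, a replication initiation factor (-4.23), and CDC6, which loads the replicative helicase (-3.77). The 2 that were higher were PCNA, the sliding clamp of DNA polymerases (log2 fold change 0.69), and RRM1, the large subunit of ribonucleotide reductase (0.35), both named after their values were seen. Of a list of DP partners, MuvB subunits, MYB factors and FOXM1, 8 of the 10 tested were lower and 2 higher. MYBL2 (log2 fold change -2.97) and FOXM1 (-2.72), which join MuvB in S and G2 phase, fell most, followed by MYBL1, a relative of MYBL2 (-1.64), and the MuvB subunit LIN9 (-0.95). Among those named after their values were seen, TFDP1, the main DP partner, fell by 0.94 and TFDP2, the other one, rose by 0.77 on the log2 scale, and the MuvB subunits LIN52 and LIN54 were lower (-0.74 and -0.41) while LIN37 was higher (0.56). Among G1 cyclins, their kinases and CDK inhibitors, 14 were tested, of which 2 were higher and 7 lower. CDKN1A rose (log2 fold change 7.01), as did CDKN2B, an inhibitor of CDK4 (1.29, named after its value was seen), and CCNE2, CDK2 (-2.31) and CDKN2C (-2.25) were the largest falls.

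Calls were also counted by the E2F letters in the promoter. Of 739 tested genes other than the members with at least 1 match, 347 (47.0%) were called lower and 23.7% higher in p53-WT cells, and of 10461 without a match 3362 (32.1%) were lower and 3489 (33.4%) higher. With 2 or more matches it was 19 lower and 5 higher of 30 genes. With UCI-1014, 24.7% of 741 genes with a match and 21.8% of 10400 without one were lower, and 24.6% and 24.0% were higher. With 2 or more matches, 16.1% of 31 genes were lower and 16.1% higher with UCI-1014. These are counts without a test, and genes with the letters also share base composition and, in part, function.

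**Figure D4:**
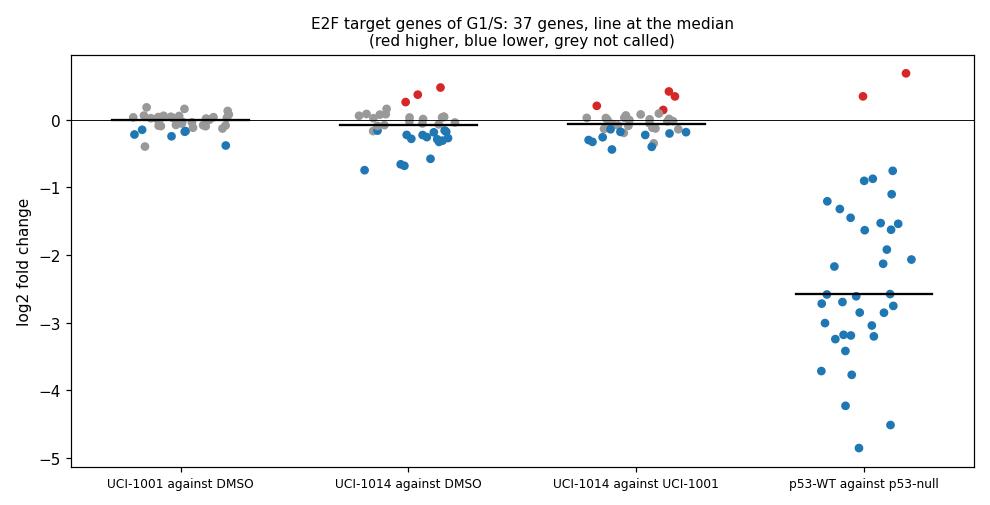
log2 fold change (vertical axis) of the 37 E2F target genes of G1/S in the 4 comparisons (horizontal axis), 1 point per gene, with a line at the median. With p53-WT 35 points are blue (lower) around a median of -2.58, and with UCI-1014 16 are lower and 3 higher around a median of -0.08.

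Several members were called with UCI-1014 after 3 h in TOV-112D cells, where many other genes were called too. Signs aside, the median change was 0.19 on the log2 scale over the members and 0.24 over all genes. For p53-WT (16 h, Saos-2 cells) these values were 1.16 and 0.61. Cell line and time differed between the comparisons, and the difference between them was not tested. Against DMSO, 4 of the 10 members were lower and 2 higher, with 21.5% of the 14988 genes tested lower and 22.7% higher. The median log2 fold change was -0.05 over the members and -0.01 over all genes. Scaled by library size alone, the median of all genes moved by -0.14, and the share of higher calls from 51.4% to 30.0%. E2F6 changed most. It was at 47.5 and 50.7 CPM with DMSO and at 82.8 and 71.2 CPM with UCI-1014. Both treated libraries lay above both controls, a 1.57-fold rise (log2 fold change 0.65, SE 0.07, adjusted p = 5.46e-05, edgeR). E2F8 was at 19.5 and 19.8 CPM with DMSO and at 15.2 and 11.8 CPM with UCI-1014, a 1.46-fold fall (-0.55 on the log2 scale, SE 0.12, adjusted p = 0.00319, edgeR). E2F2 was at 47.9 and 46.6 CPM with DMSO and at 32.8 and 35.9 CPM with UCI-1014 (log2 fold change -0.46, SE 0.06, adjusted p = 0.000227, edgeR). In both genes the treated libraries lay below the controls.

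The other called changes were small. E2F7 was at 69.4 and 69.3 CPM with DMSO and at 59.9 and 58.7 CPM with UCI-1014 (log2 fold change -0.23, adjusted p = 0.00491, edgeR), a call that held in 12 of 14 alternatives. E2F1 was at 83.0 and 79.9 CPM with DMSO and at 67.4 and 73.6 CPM with UCI-1014 (log2 fold change -0.21, adjusted p = 0.0119, edgeR). It was not called without DMSO replicate 1 (adjusted p = 0.101) or UCI-1014 replicate 1 (adjusted p = 0.0788). RBL1 was at 36.1 and 36.4 CPM with DMSO and at 41.8 and 39.6 CPM with UCI-1014, a log2 fold change of 0.17 that barely passed (adjusted p = 0.0460, edgeR) and held in 4 of 14 alternatives, with adjusted p-values from 0.0370 to 0.738. In 3 settings that leave out 1 library (DMSO replicate 1, DMSO replicate 2 or UCI-1014 replicate 1) it was lost. E2F3, E2F4, E2F5 and RBL2 were not called, with log2 fold changes between -0.06 and 0.07.

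The rise of E2F6 was seen over several of its transcripts. Those annotated as targets of nonsense-mediated decay summed to 24.1 and 24.0 TPM with DMSO and to 42.8 and 29.1 TPM with UCI-1014, and those annotated as coding to 13.2 and 13.2 TPM with DMSO and to 15.02 and 19.3 TPM with UCI-1014. The UCI-1014 libraries lay above the DMSO libraries in both classes, but they differed widely from each other. E2F6 works within the repressor complex PRC1.6, and the mRNAs of its partners were followed with the rows of 1 symbol added. Of 9 partners tested, 6 were higher and 1 lower with UCI-1014, where 22.7% of all genes were higher and 21.5% lower in the main fit. RYBP, which binds the RING subunits, rose by 1.44 on the log2 scale (SE 0.09, adjusted p = 5.73e-09, edgeR), MGA, the scaffold, 0.86, MAX, which binds DNA with MGA, 0.39, and RING1, a ubiquitin ligase whose reads are split over several identifiers, 0.31. With UCI-1001, 4 partners were higher and 1 lower, where 7.75% of all genes were higher and 5.22% lower. With p53-WT none was higher and 4 were lower, CBX3, a heterochromatin protein, most (-1.53). There 32.9% of all genes were higher and 32.1% lower. Of 4 genes listed as E2F6 targets, 2 were tested, STAG3, a germline gene, and TUBB3, a tubulin gene. Whether E2F6 represses TUBB3 was not tested. With UCI-1014 the log2 fold change of STAG3 was -0.88 (adjusted p = 0.0462, edgeR) and that of TUBB3 0.37 (adjusted p = 8.90e-06, edgeR).

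With UCI-1001 none of the 10 members was called by edgeR or by DESeq2, and 2 had an unadjusted p under 0.05. Of all genes tested, 7.75% were higher and 5.22% lower. E2F6 was at 56.8 and 57.4 CPM with UCI-1001, above the DMSO libraries, with a log2 fold change of 0.22 (95% interval 0.05 to 0.39, adjusted p = 0.0839, edgeR), and it was called in 4 of 14 alternatives. E2F2 was at 41.1 and 41.9 CPM, below the DMSO libraries, with a log2 fold change of -0.19 (95% interval -0.33 to -0.05, adjusted p = 0.0731, edgeR). The other 8 had log2 fold changes from -0.10 (E2F4) to 0.14 (E2F5). E2F8, at 18.4 and 20.4 CPM, overlapped the DMSO libraries, with a 95% interval of -0.26 to 0.23, and E2F5 and RBL2 overlapped them too. E2F1, E2F3, E2F4, E2F7 and RBL1 did not, so separation from DMSO was not particular to E2F6 and E2F2. With 2 against 2 libraries such separation has an exact permutation p of 0.333, and its share over all genes is not given here. The DMSO libraries served as controls for UCI-1001 and UCI-1014 alike.

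**Figure D5:**
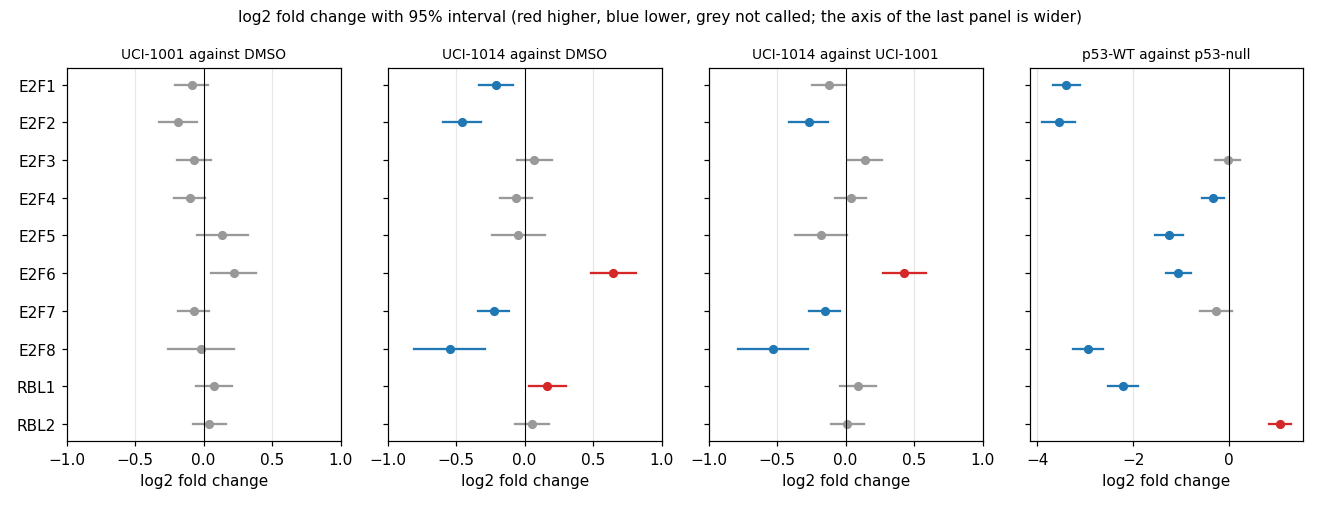
log2 fold change (horizontal axis) of the 10 genes with 95% intervals from edgeR in the 4 comparisons, red where called higher, blue where called lower and grey where not called. With UCI-1014 E2F6 is at 0.65 and E2F8 at -0.55, with UCI-1001 no interval lies beyond 0.39 in size, and the last panel has a wider axis, with E2F2 at -3.55 and RBL2 at 1.06.

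The compounds were also compared directly, as the only pair. The nitro compound UCI-1001 and the methoxy compound UCI-1014 were both given for 3 h, but the doses may have differed. Against UCI-1001, UCI-1014 gave 1 member higher and 3 lower, where 16.2% of the genes tested were higher and 11.5% lower. E2F6 was higher by 0.43 on the log2 scale (SE 0.07, 95% interval 0.27 to 0.59, adjusted p = 0.00158, edgeR). It was called in 13 of 14 alternatives, but not with all 12 libraries in 1 fit (adjusted p = 0.0705, edgeR). E2F8 had a log2 fold change of -0.53 (95% interval -0.79 to -0.28, adjusted p = 0.00685, edgeR) and E2F2 of -0.27 (95% interval -0.41 to -0.13, adjusted p = 0.0111, edgeR). E2F2 was not called without UCI-1001 replicate 2 (adjusted p = 0.0534) or UCI-1014 replicate 1 (adjusted p = 0.0692). E2F7 passed narrowly (log2 fold change -0.15, adjusted p = 0.0497, edgeR) and held in 4 of 14 alternatives, with adjusted p-values from 0.00214 to 0.542, and was lost with any 1 of the 4 libraries left out. The 6 others were not called. Their intervals reached from -0.24 to 0.00 for E2F1, 0.02 to 0.27 for E2F3, -0.08 to 0.15 for E2F4, -0.37 to 0.01 for E2F5, -0.04 to 0.22 for RBL1 and -0.11 to 0.14 for RBL2.

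Target genes moved in both directions with UCI-1014, and all that were called with UCI-1001 were lower. With UCI-1014, 16 of the 37 G1/S targets were lower and 3 higher, with a median log2 fold change of -0.08. Of all genes tested, 21.5% were lower and 22.7% higher. Cyclin E genes CCNE2 (-0.75) and CCNE1 (-0.68), UNG, which removes uracil from DNA (-0.66), and PCNA (-0.58) fell most. The 3 that were higher were EZH2, a histone methyltransferase (0.48), CDC6 (0.37) and MCM5, a helicase subunit (0.26), named after their values were seen. CCNE1 was at 34.2 and 30.7 CPM in DMSO, 25.2 and 24.6 CPM in UCI-1001 and 21.4 and 19.1 CPM in UCI-1014 libraries. With UCI-1001, 6 targets were lower and none higher, CCNE1 (-0.38) and CDT1, a licensing factor (-0.24), first among them. Of all genes tested, 5.22% were lower and 7.75% higher. Between the compounds, 10 targets were lower and 4 higher with UCI-1014, where 11.5% of all genes tested were lower and 16.2% higher. PCNA was lower with both compounds (log2 fold change -0.18 with UCI-1001, adjusted p = 0.0154, edgeR) and higher with p53-WT. It stood at 228.1 and 229.0 CPM with DMSO and at 148.6 and 157.5 CPM with UCI-1014. In Saos-2 cells it stood at 208.9 to 249.9 CPM (p53-null) and 346.8 to 373.0 CPM (p53-WT). The difference between the cell lines was not tested.

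Of the DP partners, MuvB subunits, MYB factors and FOXM1, 3 of 10 were higher and 4 lower with UCI-1014. There 22.7% of all genes tested were higher and 21.5% lower. The MuvB subunits LIN37 (log2 fold change 0.79), LIN54 (0.76) and LIN52 (0.75) were higher and TFDP1 was lower (-0.31). With UCI-1001, LIN52 (0.37) and LIN54 (0.26) were higher and none was lower, where 7.75% of all genes tested were higher and 5.22% lower. CDKN1A was higher with both compounds, by 1.64 with UCI-1001 and 3.54 with UCI-1014 on the log2 scale. Among 15 G1 cyclins, kinases and inhibitors with the rows of 1 symbol added, 1 was higher and 3 lower with UCI-1001. With UCI-1014, 3 were higher and 5 lower. The same shares of all genes, taken from the main fit, stand beside these counts.

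The gene whose pattern lay closest to each member was sought among 12122 genes whose mean reached 1 CPM in both lines, by the mean absolute difference of log2 CPM after centring each line, over 12 libraries. Nearest to E2F1 were CDCA5, a cohesion factor (0.06), and MCM2, a helicase subunit (0.06), to E2F2 CLSPN, a replication checkpoint adaptor, and ESPL1, the separase (0.08 and 0.09), to E2F8 SAPCD2 and CDC25A, a phosphatase (0.12 each), and to RBL1 TOPBP1, a replication factor, and TMEM97 (0.06 each). To E2F6 the nearest were KBTBD2 and PTBP2, to E2F5 PFN2 and TMX4, to E2F4 TMEM214 among others, to E2F3 ZMYM4 and C12orf49, to E2F7 MAN1A2 and RFX7 and to RBL2 CHMP3 and OGFOD1, at 0.03 to 0.05. Among the members themselves E2F1 and E2F2 were the closest pair (0.12). The libraries share depth and handling, and the distances are a description.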

How the data were processed

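The data were 12 RNA-seq libraries, grouped by their labels. The authors quantified reads with kallisto v0.48.0 against GRCh38, added the estimated counts of transcripts of an Ensembl gene and deposited the sums as whole-number counts, which they tested with DESeq2 v1.38.3. For each library the authors deposited estimated counts, TPM and effective lengths of 187626 transcripts as well. Estimated counts divide reads between similar transcripts, so values of single transcripts and of symbols with several identifiers are less certain. Counting was not described as stranded, and exons of E2F5, E2F8, RBL1 and RBL2 overlap genes of the opposite strand.

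Counts were tested with edgeR 4.0.16 (TMM, filterByExpr, glmQLFit, glmQLFTest; p adjusted by Benjamini-Hochberg) under R 4.3.3. Each cell line had 1 fit, over 14988 (TOV-112D) and 15080 (Saos-2) genes, after the rows of E2F2 were added. The test was checked on simulated counts. CPM were scaled to the TMM-adjusted library size, and TPM were summed over the release 44 GENCODE transcripts of a gene. For E2F2 the identical second transcript, which is outside that release, was added. The columns of the gene table were matched to their libraries: 95.49% to 95.77% of genes came within 1 count of the library's own file and at most 54.34% of another's. Nothing says whether the replicates were separate cultures, so p-values may measure technical spread. Intervals are 95%.

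The members and gene lists were chosen with earlier results of these data known. Named genes were the 10 members, up to 4 genes of each list and comparison with the largest log2 fold change among those called, the nearest 2 genes per member, and CDKN1A and MDM2 as a check of labels. A few named genes are not reported here. Genes outside this rule are marked as named after their values were seen. Alternatives were other scaling (RLE factors, library size alone), no filter, other thresholds, DESeq2 1.42.0, a length offset, other sets of libraries, a replicate block and each library left out. Same-numbered Saos-2 libraries correlated at 0.13, 0.07 and 0.05 (deviations from the group means, across genes), so the numbers were not taken as pairs. Python 3.11.15 with pandas 2.3.3, scipy 1.17.1 and matplotlib 3.10.9 did the rest.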

Additional observations from a re-analysis of the deposited data

How the results depend on the processing

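Over 566 alternative values of the 10 members in the 4 comparisons, 499 kept their direction and side of the threshold, 34 lost a call, 13 gained one and 20 changed sign, all 20 uncalled before and after. By library size alone, E2F3 (-0.068) and RBL2 (-0.085) changed sign with UCI-1014, and E2F4 (-0.087), RBL1 (-0.033) and RBL2 (-0.11) between the compounds. With the length offset RBL1 (-0.038) and RBL2 (-0.058) did with UCI-1001 and RBL2 with UCI-1014 (-0.062) and between the compounds (-0.0034). With all 12 libraries in 1 fit RBL2 did with UCI-1014 (-0.012), and E2F4 (-0.0062) and RBL2 (-0.029) between the compounds. With replicates 2 and 3 of Saos-2 alone E2F3 did (0.013). With 1 library left out, the log2 fold change ranged from -0.093 to 0.060 (E2F8) and -0.026 to 0.11 (RBL2) with UCI-1001, from -0.016 to 0.078 (E2F4) and -0.059 to 0.078 (RBL2) between the compounds, and from -0.091 to 0.059 (E2F3) with p53-WT.

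At an adjusted p of 0.05, 11 of 18 calls held under every other scaling, filter, model and set of libraries: E2F2, E2F6 and E2F8 with UCI-1014, E2F8 between the compounds, and all of p53-WT except E2F4. With UCI-1001, 0 members were called, but 1 without the filter, 1 with the rows of each symbol summed, 2 at an unadjusted p under 0.05 and 2 with the compared libraries alone. With UCI-1014 the 6 became 2 at an adjusted p under 0.001, 0 when the log2 fold change also had to pass 1 in size and 3 with all 12 libraries in 1 fit. Between the compounds the 4 became 0 and 0 under those thresholds, 1 with 1 fit and 2 with the length offset, which left out E2F3. With 1 library left out they were 2 to 4, with 2 without UCI-1001 replicate 2 or UCI-1014 replicate 1. A lone library was then assumed to vary like the others. The cause was not tested. The share of all genes called under each of these settings is not given here, so the counts have no background beside them.

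With the replicate number as a block, the calls were 0, 5, 3 and 9 for UCI-1001, UCI-1014, UCI-1014 against UCI-1001 and p53-WT. E2F7 was the call added with p53-WT (adjusted p = 0.0336, edgeR). Same-numbered UCI-1001 and UCI-1014 libraries correlated at -0.13, and with the UCI-1014 numbers crossed, chosen after seeing the data, the calls were 1, 6 and 4. For the fits with a block, too, the share of all genes called is not given here. Not every Saos-2 library correlated best with its own number. The median level of the members by counts per effective length, scaled to the same sum, was 17.9, 20.3 and 17.98 in DMSO, UCI-1001 and UCI-1014 libraries, against 21.4, 22.1 and 18.9 TPM.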
